A study of Mus musculus with 2 samples.

Results

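The 10 genes described here encode the endoplasmic reticulum protein Txndc5 and 9 relatives or partners of the protein disulfide isomerase system, namely P4hb, Pdia3, Pdia4, Pdia5, Pdia6, Erp44, Txndc12, Tmx1 and Ero1b. They were chosen by name, out of 12393 genes that had a probe set annotated with a single gene symbol. All 10 were found, on 17 probe sets, and each gene is represented by its probe set that was brightest by mean log2 signal over both pools, with the 7 others shown beside it. Liver RNA came from 2 pools of male mice, both apolipoprotein E-deficient on a C57BL/6J/ OLA129 background, with an age of 2 months in the labels. The squalene pool came from mice on chow with a 1% glycerol drink that also carried squalene, a triterpene from which cholesterol is built, for 10 weeks at a daily dose of 1 g per kg. The control pool came from mice on chow with the 1% glycerol drink alone for 10 weeks. Both groups therefore lack apolipoprotein E and drank glycerol, and no wild-type or plain-water group was analysed here. Each pool was hybridised to 1 Affymetrix array, the sources used here do not give the number of mice in a pool, and no test between the pools was possible. Every ratio below is the log2 of the signal in the squalene pool divided by that in the control pool.

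Secreted and membrane proteins acquire their disulfide bonds in the endoplasmic reticulum. Protein disulfide isomerases carry thioredoxin-like domains with reactive cysteine pairs that form, break and rearrange these bonds, and oxidases of the Ero1 family pass electrons from them to oxygen. Hepatocytes rely on this system because they secrete most plasma proteins, many of them with disulfide bonds. Transcription of several of these genes is known to respond to the unfolded protein response, which senses misfolded protein in that compartment.

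The promoters are shown for the 4 genes with the lowest ratios, of which Pdia6 has a complete stress element, for Ero1b, which also has one, and for Txndc5, because the endoplasmic reticulum stress element is a well known control sequence of genes of this compartment. It is the box CCAAT followed after 9 free bases by the box CCACG, and is bound by the factor NF-Y and by Atf6 or Xbp1. RefSeq windows of 300 bases, from 250 bases before to 50 bases after an annotated start (build GRCm38.p6), were available for all 10 genes, as 13 windows in all. In the sequences below, read 5′ to 3′ on the strand of the gene, capitals mark a match to the stress element on either strand with at most 1 of its 10 fixed letters differing. The Txndc12 window has no capitals because it holds no such match. Erp44, which had the highest ratio (0.15), also holds such a match, but its windows are not printed. In Txndc5, capitals mark the core of the unfolded protein response element, TGACGTGG.
Pdia4, chr6:47813463-47813762, minus strand: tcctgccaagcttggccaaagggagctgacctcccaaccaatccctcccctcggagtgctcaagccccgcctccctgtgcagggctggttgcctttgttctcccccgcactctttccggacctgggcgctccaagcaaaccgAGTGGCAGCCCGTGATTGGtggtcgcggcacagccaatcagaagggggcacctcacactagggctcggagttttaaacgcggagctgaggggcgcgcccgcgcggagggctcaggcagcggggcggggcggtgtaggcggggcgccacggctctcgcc
Pdia3, chr2:121413652-121413951, plus strand: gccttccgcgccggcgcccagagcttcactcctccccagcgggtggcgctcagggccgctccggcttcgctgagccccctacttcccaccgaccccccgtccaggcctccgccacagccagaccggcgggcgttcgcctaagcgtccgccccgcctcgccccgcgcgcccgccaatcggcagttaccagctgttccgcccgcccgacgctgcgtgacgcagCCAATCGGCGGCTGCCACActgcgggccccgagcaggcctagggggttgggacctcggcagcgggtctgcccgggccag
Txndc12, chr4:108834428-108834727, plus strand: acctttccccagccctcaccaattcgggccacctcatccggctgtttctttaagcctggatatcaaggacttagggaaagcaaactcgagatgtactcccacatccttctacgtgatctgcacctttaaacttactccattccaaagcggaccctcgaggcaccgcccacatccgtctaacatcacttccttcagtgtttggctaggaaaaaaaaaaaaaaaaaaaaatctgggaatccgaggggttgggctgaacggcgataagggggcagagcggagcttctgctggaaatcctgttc
Pdia6, chr12:17266339-17266638, plus strand: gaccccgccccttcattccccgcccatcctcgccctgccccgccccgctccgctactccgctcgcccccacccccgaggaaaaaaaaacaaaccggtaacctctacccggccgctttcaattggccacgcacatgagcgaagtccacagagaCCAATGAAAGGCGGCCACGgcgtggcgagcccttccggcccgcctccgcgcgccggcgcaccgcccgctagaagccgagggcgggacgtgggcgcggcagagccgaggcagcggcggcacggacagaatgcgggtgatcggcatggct
Ero1b, chr13:12565633-12565932, plus strand: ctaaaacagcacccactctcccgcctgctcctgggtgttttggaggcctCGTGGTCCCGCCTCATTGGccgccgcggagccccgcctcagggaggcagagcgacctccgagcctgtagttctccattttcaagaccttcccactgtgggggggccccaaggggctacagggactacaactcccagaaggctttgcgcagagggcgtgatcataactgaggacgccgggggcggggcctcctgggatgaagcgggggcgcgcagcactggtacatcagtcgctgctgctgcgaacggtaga
Txndc5, chr13:38527865-38528164, minus strand: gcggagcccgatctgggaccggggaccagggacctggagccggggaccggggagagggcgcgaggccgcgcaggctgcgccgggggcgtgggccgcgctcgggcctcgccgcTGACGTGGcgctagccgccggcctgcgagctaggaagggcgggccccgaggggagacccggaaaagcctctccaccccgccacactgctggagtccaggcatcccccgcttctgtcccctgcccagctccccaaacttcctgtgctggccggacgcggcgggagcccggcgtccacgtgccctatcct

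The complete stress element stood in the Pdia6 window, starting 98 bases before the annotated start, and in the Ero1b window, on the opposite strand and starting 201 bases before it. Searched on both strands, it occurred in 39 of 32851 RefSeq windows of the same length (0.119%). With 1 letter allowed to differ, Pdia3, Pdia4 and Erp44 also held a match, 29, 108 and 126 or 172 bases before their starts, and 1.5% of all windows did. The windows of Txndc5, P4hb, Pdia5, Txndc12 and Tmx1 held none. The second stress element, ATTGG followed after 1 free base by CCACG, was in none of the 13 windows and in 0.0365% of all. TGACGTGG stood in 1 of the 3 Txndc5 windows, 138 bases before the start, and in 0.676% of all windows. These motifs share the letters CCACG or its complement, but no marked stretch held more than 1 of them. A match describes letters, and binding was not measured here.

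On the arrays the family read nearly alike in both pools, with a slight tilt to lower signals in the squalene pool. The 10 ratios had a median of -0.16 and ran from -0.51 for Pdia4 to 0.15 for Erp44, and 8 of the 10 were below 0. Among 7354 measured genes, meaning genes whose signal reached the median of its array in 1 pool or both, 49.3% were below 0, with a median of 0.01. Of the 10 genes, 9 lay in the brightest tertile of measured genes by mean signal, where 53.4% were below 0 with a median of -0.02, and Pdia4 lay in the middle tertile. The sign of the tilt depends on scaling. All 18 probe sets for the hybridization spike-ins, RNAs added in fixed amounts, gave a ratio below 0, with a median of -0.26. They read the bioB, bioC, bioD and cre controls several times over, so they are not 18 separate checks. Scaling to them would give the 10 genes a median of 0.10, with 4 below 0. It would move the median of all measured genes to 0.26, with 22.3% below 0, since it adds the same amount to every gene.

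A limit of 0.5 in either direction is used here to call a gene lower or higher. By it 1 of the 10 genes, Pdia4, was lower and 0 were higher, beside 10.6% lower and 11.3% higher of all measured genes. On the brightest probe sets, none of the 10 came near the limit of 1.5 that the submitters state for their own screen. Of measured genes, 1.33% passed that limit downward and 1.21% upward. Without replicate arrays, the available measure of spread was the pooled SD among measured probe sets of a gene, which was 0.26 in the brightest tertile, 0.42 in the middle tertile and 0.80 in the dimmest. Pdia3, Pdia4, Pdia6 and Txndc12 exceeded the SD of their tertile, all downward, and the other 6 did not. Of all measured genes, 11.7% lay below 0 by more than the SD of their tertile (13.9% in the brightest tertile), and 24.2% exceeded it in either direction. The same 4 genes were below -0.3, beside 19.2% of all measured genes and 10.3% of those in the brightest tertile. That spread leaves out the differences between animals. In pooled bulk liver, fewer cells of a type and less RNA per cell cannot be told apart.

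**Figure D1:**
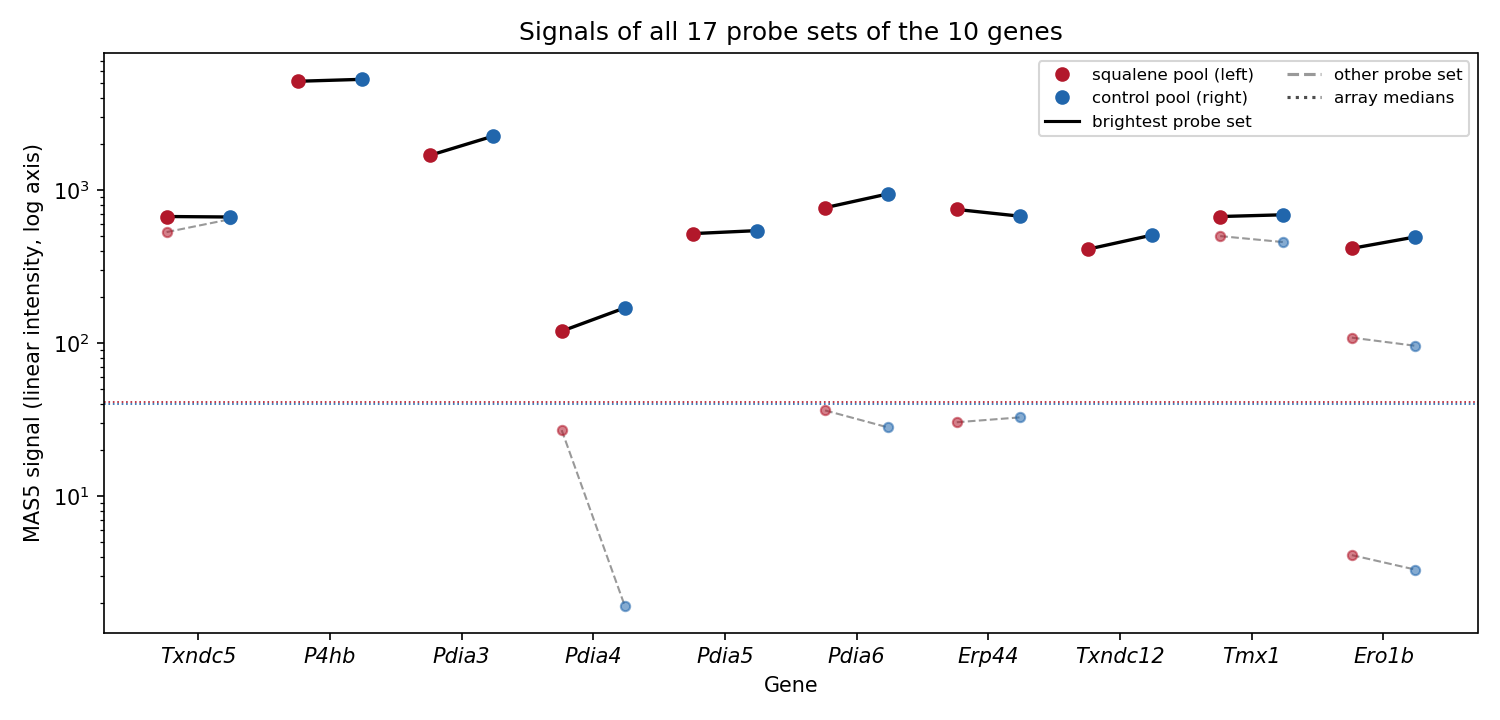
MAS5 signal (linear intensity on a log axis) of all 17 probe sets, with the squalene pool as the left point and the control pool as the right point of each gene. Black lines join the brightest probe set of a gene, dashed grey lines the others, and dotted lines mark the array medians of 41.3 (squalene) and 39.9 (control). Lines that climb to the right, as for Pdia3 and Pdia4, are lower in the squalene pool, and the steep dashed line of Pdia4 joins 26.9 and 1.9, both under the medians.

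Txndc5, also called ERp46, is a luminal oxidoreductase with several thioredoxin-like domains that introduces disulfides into client proteins. Its brighter probe set read 670.1 in the squalene pool and 665.2 in the control pool, a ratio of 0.01. Its second probe set, also well above both array medians, read 530.0 in the squalene pool and 642.6 in the control pool, a ratio of -0.28, or 1.21-fold lower. The 2 probe sets thus placed the gene 0.29 apart, about the SD between probe sets at that brightness (0.26). The brighter one sat in the middle of all genes, with 50.8% of measured genes at or below it, and the other low in the order, with 20.9% at or below it. Their mean ratio was -0.13. Both are annotated to the same complementary DNA record, so the annotation gives no reason to prefer one.

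P4hb, the founding protein disulfide isomerase, is also the beta subunit of collagen prolyl 4-hydroxylase and of the microsomal triglyceride transfer protein that loads lipid onto apolipoprotein B. Its single probe set read 5130.5 in the squalene pool and 5280.9 in the control pool, a ratio of -0.04, which turned to 0.04 after quantile normalization or loess. Its partner in lipoprotein assembly, Mttp, read 1555.3 in the squalene pool and 1399.2 in the control pool (0.15), and its second probe set gave 0.16. Of its partners in collagen hydroxylation, P4ha2 read 59.0 in the squalene pool and 64.5 in the control pool (-0.13). The brighter probe set of P4ha1 was under the array median in both pools, at 30.2 in the squalene pool and 33.0 in the control pool. None of these subunits passed the limit of 0.5 on its brightest probe set. The second P4ha1 probe set gave -1.02, at 13.6 in the squalene pool and 27.5 in the control pool, both under the array medians.

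Pdia3, or ERp57, is the isomerase that works on glycoproteins held by the lectins calnexin and calreticulin, and it takes part in loading peptides onto MHC class I molecules. Its single probe set read 1683.2 in the squalene pool and 2248.3 in the control pool, a ratio of -0.42, or 1.34-fold lower. Of the genes in the brightest tertile, 5.3% were at or below that ratio. The calreticulin gene Calr also read lower, at 3200.8 in the squalene pool and 4022.3 in the control pool (-0.33), and its 3 probe sets lay between -0.36 and -0.28. The calnexin gene Canx gave no single picture, at -0.10, 0.32 and -0.94 on its 3 probe sets from bright to dim. Of 13 measured genes of the calnexin cycle and of glucose trimming, 0 passed the limit, 8 were below 0, and the median was -0.10.

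The class I loading genes were mixed. Tapbp, which encodes the tapasin that binds Pdia3 in the loading complex, read 541.1 in the squalene pool and 508.6 in the control pool (0.09). Tap1, a subunit of the peptide transporter, read 71.3 in the squalene pool and 121.4 in the control pool (-0.77), while its 3 other probe sets were under the array medians in both pools. Of 5 measured genes 1 was lower, 0 were higher and 4 were below 0, with a median of -0.21. On plain-suffix probe sets, those without the letters that mark shared probes, 3 genes were left, with a median of -0.77.

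Pdia4, or ERp72, a luminal isomerase with 3 active thioredoxin-like domains, had the lowest ratio of the family. Its brighter probe set read 119.3 in the squalene pool and 169.5 in the control pool, a ratio of -0.51, or 1.42-fold lower. It only just passed the limit of 0.5 and was at -0.50 with a pseudocount of 3.0 and at -0.25 when scaled to the spike-ins, neither past it. In its tertile of measured genes by signal, 6.53% were at or below its ratio. The second probe set read 26.9 in the squalene pool and 1.9 in the control pool, for a ratio of 3.82. Both of those signals were under the array medians of 41.3 (squalene) and 39.9 (control), so this ratio carries little information on the gene.

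Pdia6, or P5, an isomerase that associates with the chaperone Hspa5, read 765.0 in the squalene pool and 942.7 in the control pool, a ratio of -0.30, or 1.23-fold lower. Its second probe set was under both medians, at 36.2 in the squalene pool and 28.0 in the control pool (0.37). Hspa5, the main Hsp70 chaperone of the compartment, read 4818.2 in the squalene pool and 5583.2 in the control pool (-0.21), and its second probe set gave -0.12. Hsp90b1, the resident Hsp90, stood at -0.04 and 0.09 on its 2 probe sets. Pdia5, a less studied isomerase, read 518.3 in the squalene pool and 541.7 in the control pool (-0.06) on 1 probe set. Across 22 measured luminal chaperones and cofactors 0 passed the limit, while 17 were below 0, with a median of -0.08.

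Txndc12, also called ERp18, is a small protein with a single thioredoxin-like domain. It read 410.5 in the squalene pool and 505.9 in the control pool on 1 probe set, a ratio of -0.30, nearly that of Pdia6. Tmx1, a membrane-anchored member that acts on membrane-bound clients, read 669.9 in the squalene pool and 687.8 in the control pool (-0.04). Its second probe set read 498.9 in the squalene pool and 455.9 in the control pool (0.13). Both of these ratios were within the SD of 0.26 for the brightest tertile.

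Erp44 encodes a chaperone of the early secretory pathway that retains Ero1 oxidases and unassembled subunits by mixed disulfides. It had the highest ratio of the family, at 745.2 in the squalene pool and 673.3 in the control pool (0.15, or 1.11-fold higher). Its second probe set was under both medians, at 30.3 in the squalene pool and 32.6 in the control pool (-0.11). Ero1b, one of the 2 Ero1 oxidases and a well known gene of the insulin-producing pancreas, read 414.9 in the squalene pool and 492.5 in the control pool, a ratio of -0.25. A second, dimmer probe set of Ero1b read 108.2 in the squalene pool and 95.8 in the control pool (0.18), and the third, at 4.1 in the squalene pool and 3.3 in the control pool, was near the floor. The other oxidase gene, Ero1a, was as divided, with -0.35, 0.43 and -0.20 on 3 probe sets from bright to dim. Neither oxidase gene can be given a direction from these arrays.

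Probe sets of the same gene often differed in sign. In 6 of the 6 genes with several probe sets, at least 1 probe set had the opposite sign to another. The same share over all genes is not given here, so this cannot be called particular to the family. Txndc5 (0.01 and -0.28) and Tmx1 (-0.04 and 0.13) each had 1 ratio near 0. For Pdia4, Pdia6 and Erp44 the dissenting probe set was under the array median in both pools, whereas for Txndc5, Tmx1 and Ero1b it was measured. The remaining 4 genes, P4hb, Pdia3, Pdia5 and Txndc12, had 1 probe set each and no such check. Pdia3 and Txndc12, both among the lower 4, therefore rest on 1 probe set. Pdia4 and Pdia6, also among the lower 4, rest on 1 measured probe set each.

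**Figure D2:**
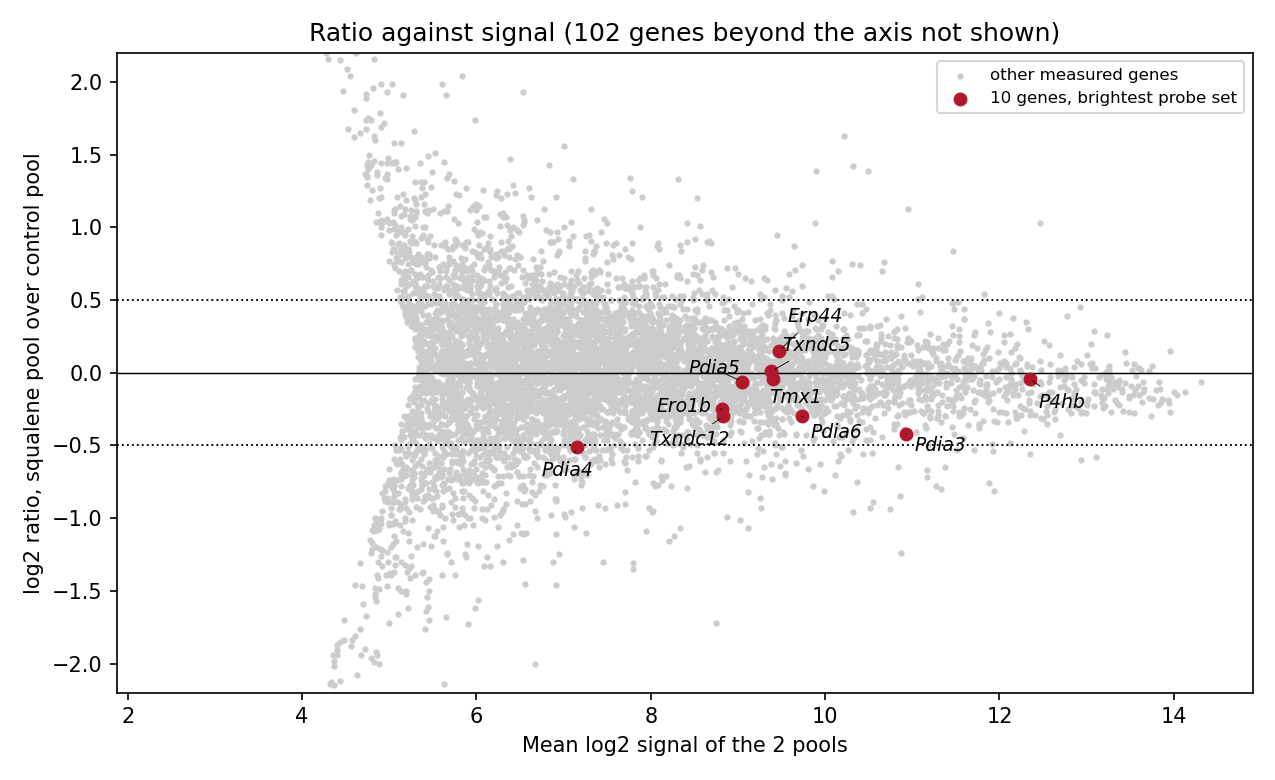
Squalene over control ratio (log2) against the mean log2 signal of the 2 pools, for all measured genes (grey) and the 10 genes on their brightest probe set (red), with dotted lines at the limits of 0.5. Of the 10 genes, 9 lie in the narrow, bright part of the cloud and Pdia4 in the middle tertile by signal, all between -0.51 and 0.15. Beyond 2.2 in either direction, 102 genes are not drawn.

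Other genes of disulfide formation showed a like small tilt. The 10 genes had a median of -0.16 with 8 below 0, and of 25 other listed genes 13 were measured, with a median of -0.24 and 10 below 0. Creld2, a secreted isomerase-like protein induced in the unfolded protein response, was the 1 called lower, at 305.1 in the squalene pool and 466.1 in the control pool (-0.61). Gpx7, a peroxidase that feeds disulfide formation, was the 1 called higher (1.04), with 43.3 in the squalene pool and 21.1 in the control pool, the second of these under the array median. Erp29, a chaperone with an inactive thioredoxin-like domain, stood at -0.34. The median of this list was -0.05 with probe sets averaged per gene, -0.13 with the probe set of smallest ratio and 0.02 when scaled to the spike-ins.

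**Figure D3:**
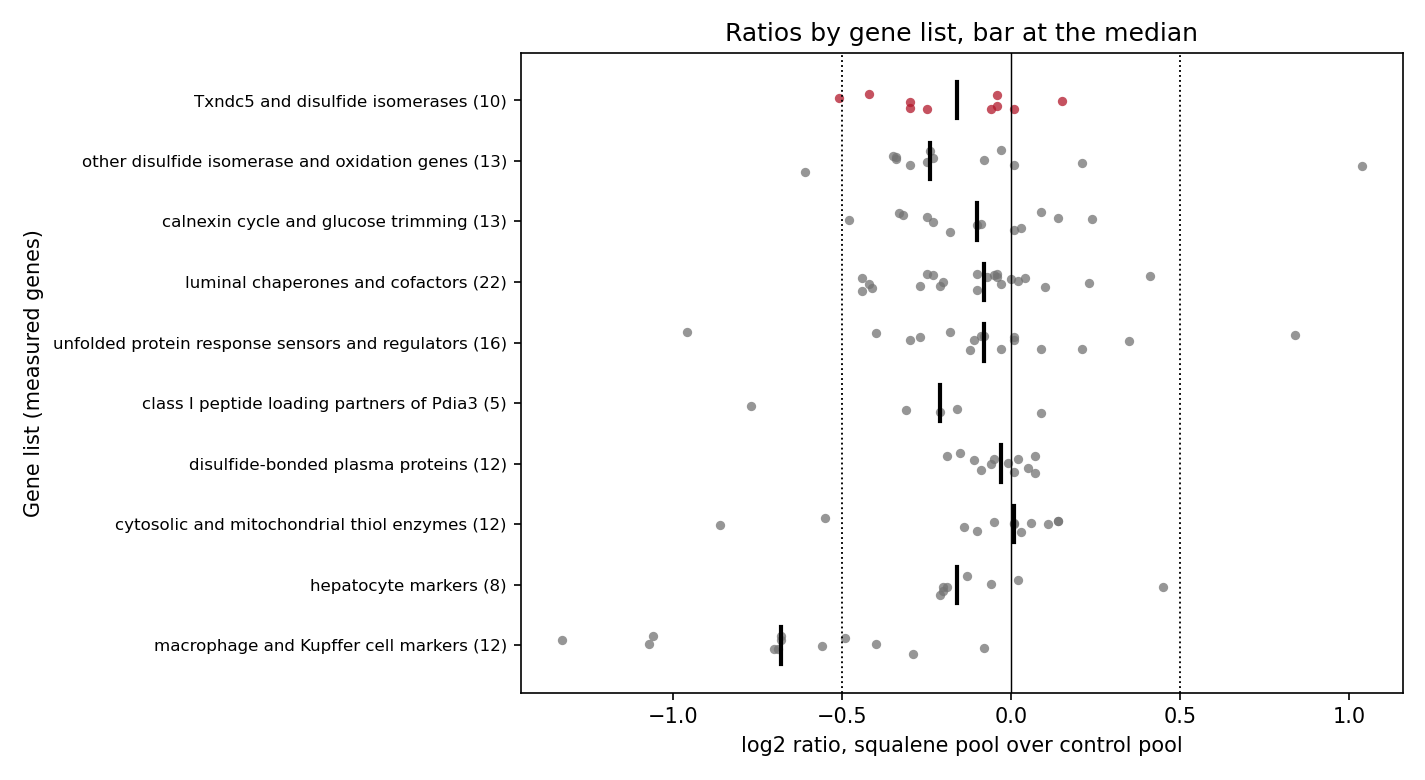
Squalene over control ratios (log2) for the measured genes of each list, with 1 point a gene, a black bar at the list's median and the number of measured genes in brackets. The 10 genes (red, top) sit between -0.51 and 0.15, the other endoplasmic reticulum lists spread more widely, up to 1.04 for the other disulfide genes, and the macrophage markers at the bottom lie farther down, all 12 below 0.

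The regulators of the unfolded protein response had a median near 0. Xbp1, a transcription factor of the response, stood at -0.03 on its brightest probe set, with 3101.3 in the squalene pool and 3175.5 in the control pool, and at -0.18, -0.18 and 0.40 on the others. Atf6, a membrane-bound factor activated by cleavage, stood at 0.09, and Atf4, the factor of the translational arm, at 0.01. A pair of known targets of the response went opposite ways and past the limit. Derl3, a component of the machinery that removes misfolded proteins, read 185.3 in the squalene pool and 360.9 in the control pool (-0.96), on 1 probe set. Herpud1, another component of it, read 3796.8 in the squalene pool and 2118.5 in the control pool (0.84), and 0.72 on its second probe set. Of 16 measured genes 1 was lower, 1 higher and 10 below 0, with a median of -0.08.

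The stress element gave a further way to group the genes, one chosen after the ratios were seen. The 5 family members with a match of at most 1 differing letter, Pdia3, Pdia4, Pdia6, Erp44 and Ero1b, had a median ratio of -0.30, from -0.51 to 0.15. The 5 without one had a median of -0.04, from -0.30 for Txndc12 to 0.01 for Txndc5, so the groups overlapped. Over the whole array, 15 measured genes had the complete element in a RefSeq window, with a median of -0.21 and 12 below 0, beside 49.3% of all measured genes. Their ratios ran from -1.16 to 1.37. Of these 15, 10 belonged to the lists used here (Calr, Canx, Creld2, Derl3, Dnajc3, Ero1b, Hsp90b1, Hspa5, Pdia6 and Syvn1), and all 10 were below 0 on the brightest probe set. Every ratio above 0 among the 15 was thus from a gene outside these lists, which were chosen with earlier results known. Over the 5 endoplasmic reticulum lists together, the 10 genes of the family included, 53 of 74 measured genes were below 0, and 43 of the 64 without the element. Ero1b, Canx and Hsp90b1, counted among the 10, each had another measured probe set above 0. Any other probe sets of Dnajc3 and Syvn1 are not given here. The ratios of 4 of them, Canx, Hsp90b1, Dnajc3 (-0.05) and Syvn1 (-0.09), were no further from 0 than -0.10. With 1 letter allowed to differ, 132 measured genes held a match, 58 of them below 0, and their median was 0.05. Herpud1, which read higher in the squalene pool, held the second element and not the complete first one. Scaling to the spike-ins adds 0.26 to each of these values and would leave 4 of the 10 below 0, beside 22.3% of all measured genes.

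**Figure D4:**
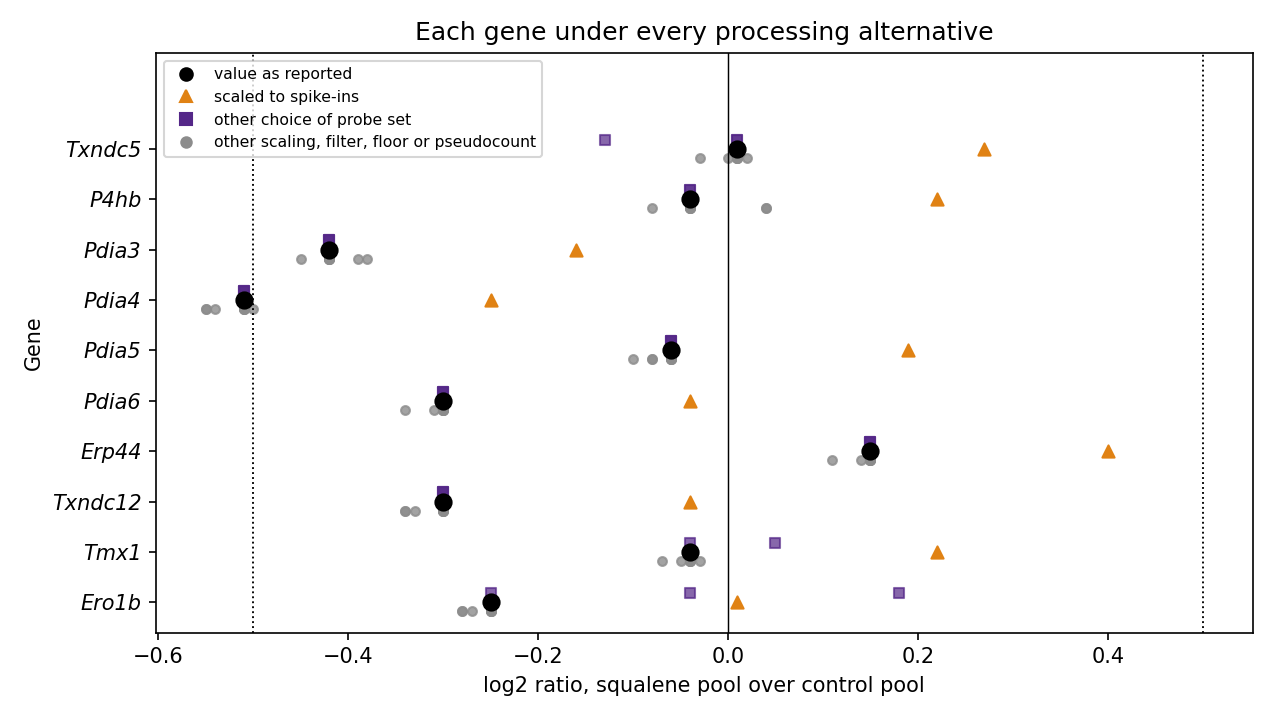
Squalene over control ratio (log2) of each of the 10 genes as reported (black), scaled to the spike-ins (orange triangles), with another choice of probe set (purple squares, drawn slightly above) and under other scalings, filters, a floor or a pseudocount (grey, drawn slightly below). Scaling to the spike-ins moves every gene to the right by 0.26 and leaves Pdia4 lowest at -0.25 and Erp44 highest at 0.40.

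The typical clients of the system were level. Of 12 measured plasma proteins with disulfide bonds 0 passed the limit, and the median was -0.03, with a range from -0.19 for Alb, the albumin gene, to 0.07. Alb itself read 14625.1 in the squalene pool and 16656.0 in the control pool. The 10 genes had a median of -0.16 and 8 measured hepatocyte markers one of -0.16, of which 0 passed the limit. After quantile normalization these medians were -0.18 and -0.01, and after loess -0.18 and -0.06. The labelled tissue was thus borne out by its defining markers, such as Alb, which were far above the array medians in both pools.

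Markers of some other cell types differed more than the 10 genes did. Of 12 measured macrophage and Kupffer cell markers 12 were below 0 and 8 were lower past the limit, with a median of -0.68 and a summed signal of 4521 in the squalene pool and 6964 in the control pool. The scavenger receptor genes Msr1 (-1.33) and Marco (-1.06), the lysozyme gene Lyz2 (-1.07) and the lectin gene Clec4f (-0.70) had the lowest ratios. Of 7 measured stellate cell and matrix markers 4 were lower, with a median of -0.70, which turned to 0.01 over the 3 genes above the 75th percentile or on plain-suffix probe sets, and a summed signal of 3585 in the squalene pool and 3905 in the control pool. Only 5 of 12 B and plasma cell markers and 4 of 12 exocrine pancreas markers, both from cells rich in isomerases, were measured. The B and plasma cell genes went both ways, with Igha at -1.56, Derl3 at -0.96 and Ighm at 0.71, and their median of -0.05 was -0.96 with probe sets averaged per gene and -0.50 over the 2 genes above the 75th percentile. The pancreas markers had a median of -0.38, which was -0.03 with no filter. The 8 measured endothelial markers had a median of -0.09, and of -0.46 over the 2 above the 75th percentile. Too few genes were measured to place the other lists. The 3 neutrophil markers, with a median of -0.50, included S100a9 and Ngp, each above the array median in 1 pool alone. The 1 T and NK cell marker, Ccl5 (-2.44), read 8.0 in the squalene pool and 43.3 in the control pool, and -0.07 with signals raised to the array median. The 1 red cell marker, Alas2, stood at -0.47. No signal on either array was 0. The part of these cells in the ratios of the 10 genes was not tested.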

How the data were processed

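Liver RNA of a squalene pool and a control pool was read on 1 Affymetrix array each, and groups were taken from the sample titles. The growth protocol text names squalene for both samples, so the control's drink is taken from its own description and feeding label. The deposited values are linear intensities made by the authors with MAS5, per the submitters' processing notes, with 1 signal a probe set. The sources used here do not give the version, the scaling target or a genome build. The 2% trimmed mean was 200.1 on both arrays, and signals ran from 0.1 to 20695.1 (squalene) and 0.2 to 22342.9 (control).

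Of 22690 probe sets, 64 array controls were left out, and 20380 of the rest had 1 gene symbol, 691 several and 1555 none. RefSeq held 20351 of the single symbols by Entrez number, and 0 changed. Log2 ratios were taken with no pseudocount. With 1 array a group the number of arrays limits the precision and no p-value was computed. The 10 genes, the 17 other gene lists and the limit of 0.5 were chosen with earlier results of these data known. Outside the 10 genes, the text names a fixed set of partners and up to 4 genes a list past the limit, and the stress element genes Dnajc3 and Syvn1 were named after their values were seen. The scripts were tested on simulated data. Alternatives covered scaling (median, spike-ins, quantile, and loess by limma 3.58.1 under R 4.3.3), a floor, a pseudocount of 3.0, the choice of probe set and the filter. Python 3.11.15, numpy 2.4.6, pandas 2.3.3, scipy 1.17.1 and matplotlib 3.10.9 were used.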

Additional observations from a re-analysis of the deposited data

How the results depend on the processing

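No paired analysis was possible because each pool had 1 array, and for the same reason no array could be left out in turn. Over 118 ratios of the 10 genes under 12 alternatives, 1 moved by more than the SD between probe sets: Ero1b read 0.18 on its probe set of smallest ratio. Many of the 118 could not move. The filters and the floor altered none of the 10 genes, because each brightest probe set passed every cut. A gene with 1 measured probe set had no other to choose. Spike-in scaling moved every ratio by 0.26, about the SD between probe sets, and turned P4hb, Pdia5, Tmx1 and Ero1b, 4 in all, to above 0. Pdia4, the 1 gene called, stayed below 0 in each alternative, but it had only 1 measured probe set. Txndc5 ranged from -0.13 with the mean of its probe sets to 0.27 when scaled to the spike-ins. The median of the 10 genes was 0.10 under that scaling, -0.05 with the probe set of smallest ratio, and -0.27 over 8 genes with a plain-suffix probe set. The number below 0 was 4 of 10 with spike-in scaling, where 22.3% of all measured genes were below 0. It was 6 of the 8 genes with a plain-suffix probe set, and 7 to 9 of 10 otherwise. The number lower past the limit was 0 with spike-in scaling and 0 with the pseudocount, beside 5.26% and 10.1% of all measured genes. It was 4 at a limit of 0.3, which 19.2% of all measured genes passed downward. At a limit of 1.0 it was 0, and the share of all measured genes past that limit is not given here.

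Spike-in scaling turned 10.6% lower and 11.3% higher of all measured genes into 5.26% and 25.7%. With no filter 19.8% were lower and 21.5% higher, with both pools at or above the median 6.34% and 7.85%, and above the 75th percentile 4.7% and 5.83%. The class I loading list had a median of -0.77 on plain-suffix probe sets. Stellate markers had a median of 0.01 both there and above the 75th percentile, and T and NK cell markers 0.20 with no filter, where 8 genes entered. The cause was not tested, beyond the change in which genes enter. Signals under the array median limit what the dimmer probe sets of Pdia4, Pdia6, Erp44 and Ero1b can show.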

Other observations

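Thiol enzymes outside the endoplasmic reticulum were level as a group, with 2 exceptions. Of 12 measured thioredoxin, glutaredoxin and related genes of the cytosol and mitochondria, 10 lay within the limit of 0.5, and the median ratio was 0.01. Txnip, which encodes an inhibitor of thioredoxin that responds to glucose, read 377.1 in the squalene pool and 552.2 in the control pool (-0.55), and its second probe set gave -0.65. Nxn, the nucleoredoxin gene, read 33.2 in the squalene pool and 60.4 in the control pool (-0.86). Its squalene signal was under the array median, and its second probe set (-1.05) was under it in both pools. The median of this list was 0.27 when scaled to the spike-ins.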
